A study of Homo sapiens
Mus musculus with 3 samples.

Results

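The 10 genes described here code for transcription factors and NOTCH receptors that are known from human T-cell leukemia. They are TAL1 (ENSG00000162367), LMO1 (ENSG00000166407), MYB (ENSG00000118513), NOTCH1 (ENSG00000148400), NOTCH3 (ENSG00000074181), TCF7 (ENSG00000081059), LEF1 (ENSG00000138795), GATA3 (ENSG00000107485), BCL11B (ENSG00000127152) and RUNX1 (ENSG00000159216). They were chosen by name, as the rows of the count tables with these Ensembl identifiers, and all 10 were found among the 60736 genes of the tables, of which 32738 were human. The genes were measured by single-cell RNA-seq on the ICELL8 cx, which places cells in barcoded nanowells and counts the ends of mRNAs. Each of the 3 libraries was made from an equal mixture of Jurkat and TALL-104, which are human T-cell leukemia lines, EL4, which is a T-cell lymphoma line of the mouse, and IVA12, which is a mouse B-cell hybridoma. The labels name no treatment or genetic change. The official kit gave 3'DE libraries 1 and 2, and a modified protocol, in which cDNA was cleaned and digested with an exonuclease before amplification, gave the single 3'DE-UMI library with unique molecular identifiers (UMIs). Per the study's supplement, one cell mixture served for the 3'DE-UMI library and for 3'DE library 2, while 3'DE library 1 came from another. Where 3 values stand together below, they are those of 3'DE library 1, of 3'DE library 2 and of 3'DE-UMI, in that order.

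TAL1 is a basic helix-loop-helix factor that is silenced in normal T-cell development and is switched on in many T-cell leukemias, where it binds DNA together with LMO proteins, GATA3, RUNX1 and MYB. NOTCH receptors are cut at the membrane when a ligand binds, and the freed intracellular part enters the nucleus and activates genes that commit progenitors to the T lineage. TCF7 and LEF1 are related HMG-box factors that pair with beta-catenin, and GATA3, BCL11B and RUNX1 are factors that T cells need to form and to keep their identity.

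The library was the unit of replication, and wells within a library were not treated as replicates. A total of 35581264, 109702878 and 44883618 reads were assigned to genes. Wells with at least 1000 reads and 200 genes, and with under 10% of reads from the other species, numbered 533, 484 and 557 on the human side. Clustering without the 10 genes gave 2 human clusters. Human cluster 1 held 406, 448 and 528 wells, with medians of 25801, 36445 and 17469 human reads per well. Human cluster 2 held 127, 36 and 29 wells and was shallower, with medians of 4493, 9277 and 4808 human reads. No file paired identifiers of marker genes with symbols, so neither cluster was named after a cell line. Well barcodes came from one set, and 481 were shared by the kept wells of the 3'DE libraries, while 3'DE-UMI shared 449 with 3'DE library 1 and 387 with 3'DE library 2. Levels are given as CPM, the reads of a gene scaled to 1000000 human reads summed over the wells of a cluster. Their 95% intervals (exact Poisson for reads, exact binomial for wells) cover counting error only, since reads copied by PCR are not independent molecules.

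Clusters 1 and 2 differed in which of the 10 genes were seen at all. TAL1, LMO1, MYB, NOTCH1 and NOTCH3 had 0 reads in human cluster 2 of every library, while each had reads in human cluster 1 of every library. The 5 remaining genes, TCF7, LEF1, GATA3, BCL11B and RUNX1, had reads in both clusters. The sums for human cluster 2 were 637255, 1396420 and 191718 human reads, or 2225393 in all. Among the 12286 human genes with reads in cluster 1 of all libraries, 24.8% had 0 reads in cluster 2 of all libraries, against these 5 of 10 members. Among the 6596 genes with a mean of at least 10 CPM in cluster 1 the share was 6.34%, and of the 7 members at that level 2, TAL1 and MYB, were at 0.

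**Figure D1:**
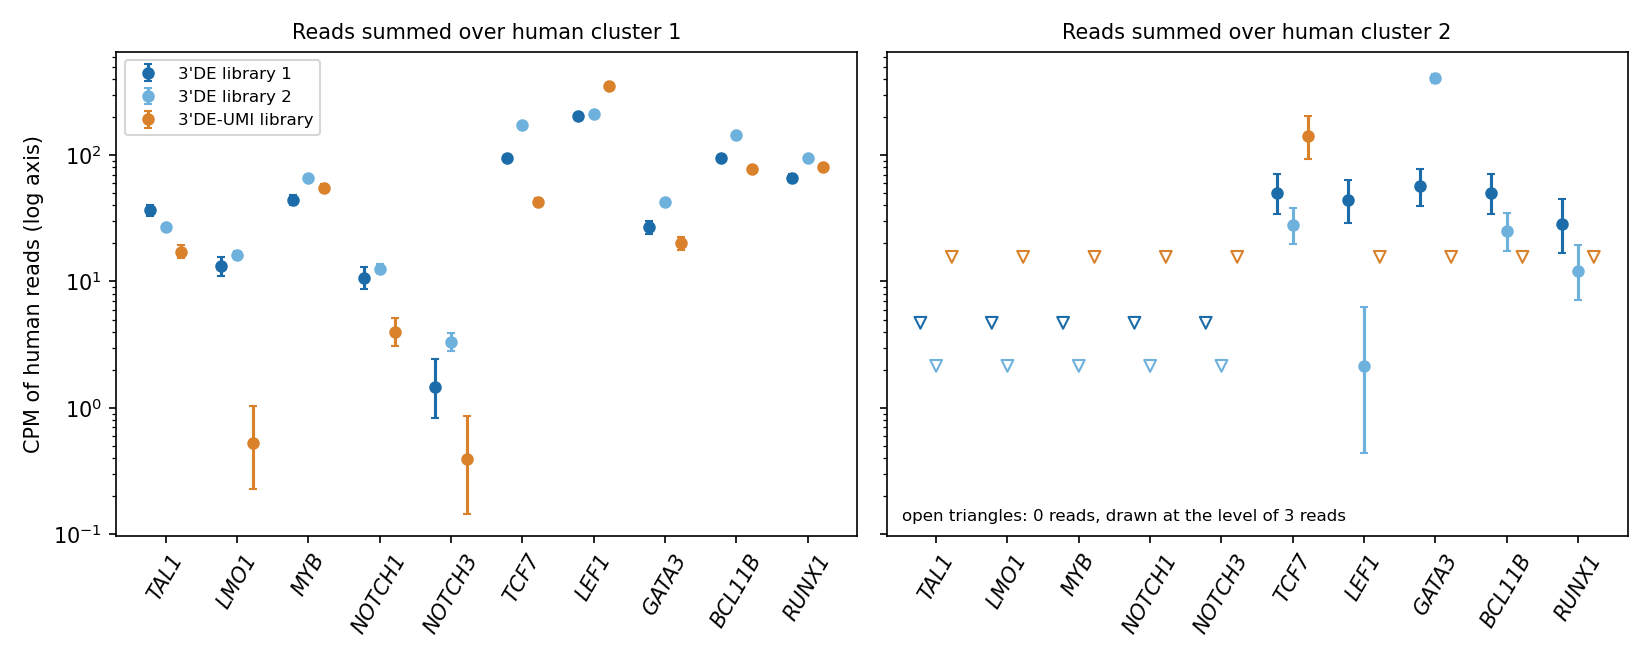
Level of each gene in CPM of human reads (log axis) in human cluster 1 (left) and human cluster 2 (right), with 1 point per library and exact 95% Poisson intervals. In human cluster 2 the open triangles mark genes with 0 reads, drawn at the level that 3 reads would give; TAL1, LMO1, MYB, NOTCH1 and NOTCH3 are triangles in all 3 libraries.

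TAL1, the leukemia factor that gives the TAL1 complex its name, was measured at 36.7 CPM (33.0 to 40.6), 27.0 CPM (25.6 to 28.6) and 17.2 CPM (15.2 to 19.5) in human cluster 1, lowest in the 3'DE-UMI library. In human cluster 2 it was listed at 0, where 3 reads would have given 4.71, 2.15 and 15.6 CPM. By reads, with 3 reads per library as the floor, TAL1 was at least 7.79-fold and at least 12.6-fold higher in cluster 1 of the 3'DE libraries. The 3'DE-UMI library gave at least 1.10-fold by reads only, and the Poisson interval of 0 reads there reached 19.2 CPM. TAL1 was in 4.36% of its cluster 1 wells, and 0 of 29 cluster 2 wells allows up to 10.3%. That library therefore could not bound TAL1. LMO1, a LIM-only protein that bridges factors of this complex without binding DNA itself, was at 13.3 CPM and 16.1 CPM in the 3'DE libraries and at 0.527 CPM, or 8 reads, in the 3'DE-UMI library. By reads, its level in cluster 1 was at least 2.82-fold and at least 7.51-fold above cluster 2 in the 3'DE libraries. The 3'DE-UMI library was too shallow in cluster 2 to give a bound above 1.

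MYB, a factor of proliferating progenitors that also binds with TAL1, had the largest lower bounds of the 5 genes at 0. It was at 43.9, 66.1 and 55.2 CPM in human cluster 1. By reads, that was at least 9.33-fold, at least 30.8-fold and at least 3.53-fold above cluster 2. The 3'DE-UMI bound holds for reads only, since reads copied by PCR are not independent molecules. In UMIs scaled like CPM, MYB was at 52.0 in cluster 1, and the 95% interval of 0 UMIs in cluster 2 reached 270. MYB was in 9.28% of cluster 1 wells there, and 0 of 29 wells allows up to 10.3%. Only the 3'DE libraries thus placed MYB in cluster 1 above the level that a count of 0 allowed in cluster 2.

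NOTCH1, the receptor that is most often mutated in T-cell leukemia, was at 10.7, 12.6 and 4.02 CPM in human cluster 1, and at least 2.28-fold and at least 5.87-fold above cluster 2 in the 3'DE libraries. NOTCH3, a related receptor, was the most weakly covered of the 10, with 15 reads (1.47 CPM), 154 reads (3.31 CPM) and 6 reads (0.395 CPM). By reads, a difference of NOTCH3 between the clusters could be bounded only in 3'DE library 2, at least 1.54-fold. The bounds of LMO1, NOTCH1 and NOTCH3 hold for reads only. Their reads in cluster 1 of 3'DE library 2 lay in 47, 43 and 39 wells, and copied reads are not independent. With wells thinned to 5000 human reads, none of these 3 genes was above the limit that 0 wells of cluster 2 sets. Neither receptor could be bounded in the 3'DE-UMI library, where 3 reads of human cluster 2 already correspond to 15.6 CPM.

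TCF7, a factor of early T-cell commitment, was at 94.8, 173 and 42.6 CPM in human cluster 1 and at 50.2, 27.9 and 141 CPM in human cluster 2. Its 32, 39 and 27 reads in cluster 2 came from 9, 4 and 1 wells, and a single well gave 33 of the 39 reads of 3'DE library 2 and all 27 reads of the 3'DE-UMI library. Without that well in each library, the levels were 38.7, 4.49 and 0 CPM. TCF7 was thus higher in cluster 1 in both 3'DE libraries, whereas in the 3'DE-UMI library the order rested on 1 well of cluster 2.

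LEF1, the partner of TCF7 in this family, was at 203, 210 and 349 CPM in human cluster 1, with 742 of 1382 wells holding at least 1 read. In human cluster 2 it had 28 reads (43.9 CPM) in 7 wells, 3 reads (2.15 CPM) in 1 well, and 0 reads. Its groups did not overlap. The ratio of cluster 1 to cluster 2 was 4.61 in 3'DE library 1 and at least 22.3 in the 3'DE-UMI library; in 3'DE library 2 it was 97.6, on a count of 3 reads whose Poisson interval runs from 0.443 to 6.28 CPM.

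GATA3, a zinc-finger factor needed at several steps of T-cell development, was the exception in direction by CPM in the 3'DE libraries. It was at 26.7, 42.3 and 20.01 CPM in human cluster 1 and at 56.5, 407 and 0 CPM in human cluster 2. Of its 568 reads in cluster 2 of 3'DE library 2, 494 came from the deepest well, and all from 3 wells; without that well its level there was 67.8 CPM (53.2 to 85.1). In 3'DE library 1 its 36 reads came from 10 wells, the top well giving 9 of them. With equal weight for every well GATA3 was at 24.5, 36.6 and 36.8 CPM in cluster 1 and at 84.1, 82.9 and 0 CPM in cluster 2. By CPM GATA3 was lower in cluster 1 in both 3'DE libraries, also without those wells, but on few wells of cluster 2. Cluster 2 of 3'DE library 1 was then at 42.5 CPM (28.0 to 61.9), overlapping cluster 1 at 26.7 CPM (23.7 to 30.1). In 3'DE library 2 there were then 74 reads, 73 of them in 1 well. Unthinned shares of wells ran the other way, at 17.0% of cluster 1 against 7.87% of cluster 2 in 3'DE library 1, and 22.1% against 8.33% in 3'DE library 2. In the 3'DE-UMI library, where the 29 wells of cluster 2 gave none, GATA3 was at least 1.28-fold higher in cluster 1 by reads only. It was in 4.73% of cluster 1 wells there, and 0 of 29 wells allows up to 10.3%. Its direction in that library was therefore not settled.

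BCL11B, a zinc-finger factor that locks in T-lineage commitment, was at 94.6, 143 and 77.0 CPM in human cluster 1 and at 50.2, 25.1 and 0 CPM in human cluster 2. RUNX1, the DNA-binding part of core-binding factor, was at 66.1, 94.4 and 80.2 CPM in cluster 1 and at 28.2, 12.2 and 0 CPM in cluster 2. By reads, every library of cluster 1 was above every library of cluster 2 for both genes. In UMIs scaled like CPM, BCL11B was at 72.0 and RUNX1 at 64.7 in cluster 1 of the 3'DE-UMI library. The 95% interval of 0 UMIs in cluster 2 there reached 270. Ratios in the 3'DE libraries were 1.88 and 5.71 for BCL11B and 2.34 and 7.75 for RUNX1. One well gave 28 of the 35 reads of BCL11B in cluster 2 of 3'DE library 2. Without the top well of each library, cluster 2 of the 3'DE libraries had BCL11B at 31.8 and 5.06 CPM, RUNX1 at 15.9 and 6.29 CPM, and LEF1 at 25.3 and 0 CPM. No well was taken from cluster 1, so larger ratios were fixed in advance. If reads were counted without strand, those of LEF1, GATA3 and RUNX1 cannot be told from those of their antisense genes LEF1-AS1, GATA3-AS1 and RUNX1-AS1, nor those of TCF7 from VDAC1. The 3 values of cluster 1 lay above the 3 values of cluster 2 for 8 of the 10 members, all but TCF7 and GATA3. Among the 12286 genes the share was 40.8%. The 5 members at 0 reads in cluster 2 are among these 8 by construction, as all 12286 genes had reads in cluster 1. LEF1, BCL11B and RUNX1 are thus what this count adds. For NOTCH3, LMO1 and NOTCH1, however, the value of the 3'DE-UMI library in cluster 1 was below the level that 3 reads would give in cluster 2 of that library.

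Human cluster 1 against human cluster 2 was tested in edgeR (quasi-likelihood F-test, two-sided, library as a block, Benjamini-Hochberg adjustment) on the 6 sums. Of 9482 genes tested, 371 passed an adjusted p of 0.05, or 3.91%, of which 245 were higher and 126 lower in cluster 1. Among the 937 genes held out of the clustering 4.38% passed. LMO1 and NOTCH3 did not pass the filter on low counts, and of the 8 members tested 1 was called. LEF1 was higher in cluster 1 by 5.42 on the log2 scale (SE 1.49, adjusted p = 0.0106), where the median over all genes was 1.71. The call for LEF1 was lost when any 1 library was left out, with the log2 difference at 7.46 without 3'DE library 1 (adjusted p = 0.538), 4.58 without 3'DE library 2 (adjusted p = 0.142) and 4.01 without the 3'DE-UMI library (adjusted p = 0.0624). The count of genes called was 27 without 3'DE library 1 and 208 without 3'DE library 2. The call for LEF1 was also lost in wells with under 1% mouse reads, without the library block and with at least 5000 reads per well, where the log2 difference was 7.06, 4.201 and 5.43.

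The factors at 0 in cluster 2 did not pass the test, although no library had a read there: edgeR gave an adjusted p of 0.0572 for MYB, 0.141 for TAL1 and 0.221 for NOTCH1. Their fitted differences depend on how a count of 0 is handled and are not given as folds. With DESeq2, MYB (adjusted p = 0.000618) and TAL1 (adjusted p = 0.00652) passed, as they did with UMI counts in the 3'DE-UMI library (edgeR adjusted p = 0.00562 and 0.0329). Those 2 settings also called more of all genes, 1479 of 9471 and 558 of 6866, against 371 of 9482 in the main fit. Without the library block MYB, TAL1 and NOTCH1 each had an edgeR adjusted p of 0.0497. That fit ignores that both clusters came from the same libraries, and it called 1177 of 9482 genes. The other members had log2 differences in edgeR of 0.79 (SE 1.49, adjusted p = 0.804) for TCF7, -0.75 (SE 1.62, adjusted p = 0.835) for GATA3, 2.702 (SE 1.69, adjusted p = 0.376) for BCL11B and 3.06 (SE 1.88, adjusted p = 0.365) for RUNX1. With standard errors of that size, differences of several fold would not have been detected for these 4 genes.

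Depth differed between the clusters, so shares of wells were also compared after each well of 3'DE library 1, which held most wells of cluster 2, was thinned to 5000 human reads. This left 390 wells of cluster 1 and 50 wells of cluster 2, with 16 and 77 shallower wells left out. TAL1 was detected in 12.3% of cluster 1 wells (9.22 to 15.99) and in 0 of 50 wells of cluster 2, which allows a share of up to 6%. MYB was detected in 15.4% (11.95 to 19.4) against 0 of 50. For LMO1 (3.59%), NOTCH1 (4.87%) and NOTCH3 (0.769%) the share in cluster 1 was under the limit of 6%, so at this depth no difference was detectable for them in wells.

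Among the genes with reads in both clusters, LEF1 was detected in 49.2% of thinned wells of cluster 1 (44.2 to 54.3) and in 8% of cluster 2 (2.22 to 19.2). TCF7 was detected in 29.0% against 8%, and BCL11B in 27.2% against 8%. These intervals did not overlap for LEF1, TCF7 or BCL11B. RUNX1, at 16.2% against 6% (1.25 to 16.5), and GATA3, at 8.46% against 6%, had intervals that did. In 3'DE library 2, 26 wells of cluster 2 reached this depth, and a count of 0 there allows a share of up to 11.5%. MYB, at 17.2% of cluster 1, was above that limit and TAL1, at 9.57%, was under it. The intervals in 3'DE library 2 did not overlap for LEF1 (43.8% against 3.85%), TCF7 (40.2% against 3.85%) or RUNX1 (21.5% against 0 of 26), and did for BCL11B (26.8% against 7.69%) and GATA3 (9.81% against 11.5%). In the 3'DE-UMI library 14 wells were left, and TCF7 was in 6.61% of cluster 1 and in 1 of 14 wells of cluster 2. In 3'DE library 1 at least 1 of the 10 genes was seen in 85.6% of the thinned wells of cluster 1 and in 28% of those of cluster 2.

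**Figure D2:**
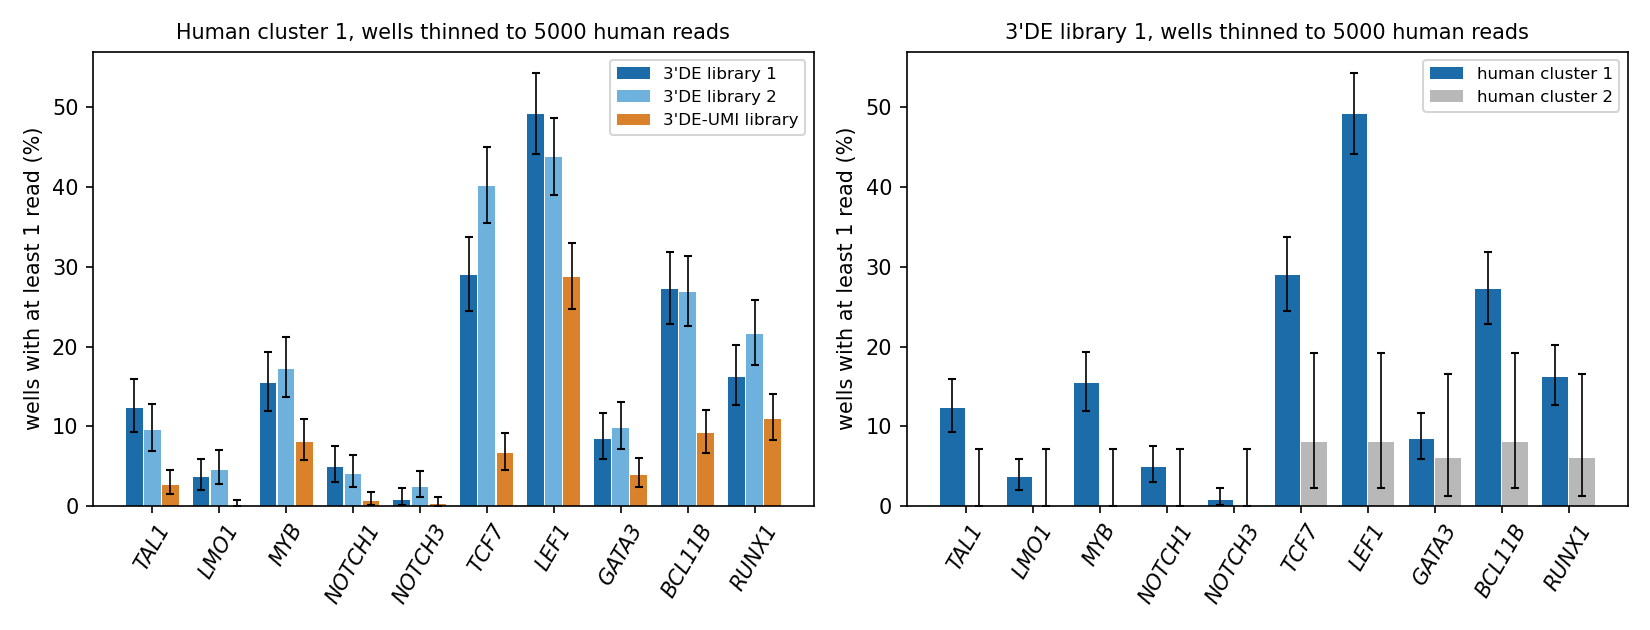
Percent of wells with at least 1 read after each well was thinned to 5000 human reads, with exact 95% binomial intervals: the 3 libraries in human cluster 1 (left), and both human clusters of 3'DE library 1 (right). The 3'DE-UMI bars are the lowest for every gene on the left, and the intervals of LEF1 do not overlap between the clusters on the right.

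Human reads also reached wells that held mouse cells, which gives a background for the shares. Mouse wells had medians of 75.5, 522 and 96.5 human reads, all far fewer than in human wells. In these wells TCF7 was listed in 1.30%, 14.4% and 1.86%, LEF1 in 2.39%, 10.1% and 0.714%, and TAL1 in 0.434%, 3.49% and 0.286%. In unthinned human cluster 2, TCF7 was seen in 7.09%, 11.1% and 3.45% of wells and LEF1 in 5.51%, 2.78% and 0%. In 3'DE library 2 the shares of TCF7, LEF1, BCL11B and RUNX1 in cluster 2 were below those in mouse wells. With at least 2 reads required the order was the other way, at 8.33% against 3.49% for TCF7, 8.33% against 2.46% for BCL11B, 5.56% against 0.906% for RUNX1 and 2.78% against 2.33% for LEF1, on 3, 3, 2 and 1 wells of cluster 2. Expression of these 4 genes in cluster 2 of that library was not told from background. GATA3 in that library was at 8.33% (1.75 to 22.5) in cluster 2, on 3 wells, against 3.23% (2.10 to 4.74) in mouse wells. These intervals overlapped, so GATA3 was not told from background there either. In 3'DE library 1 the intervals of cluster 2 lay wholly above those of mouse wells for TCF7 (7.09% against 1.30%), GATA3 (7.87% against 0.325%) and BCL11B (6.30% against 1.30%), but not for LEF1 or RUNX1.

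The ratios between members also differed between these groups of wells. In 3'DE library 1 there were 0.132 GATA3 reads for each LEF1 read in human cluster 1 and 1.29 in human cluster 2. The value in mouse wells was 0.135, on 5 GATA3 reads, 3 of them in 1 well, and 37 LEF1 reads. For MYB the values were 0.217 in cluster 1, 0.486 in mouse wells and 0 in cluster 2. For TAL1 they were 0.181, 0.108 and 0. The values in mouse wells rested on 18 MYB reads and 4 TAL1 reads. In cluster 2 of this library GATA3, TCF7 and BCL11B had 36, 32 and 32 reads against 28 of LEF1, with overlapping Poisson intervals. In the mouse wells of 3'DE library 2 there were 1.52 TCF7, 1.23 BCL11B and 0.352 GATA3 reads for each LEF1 read. In human cluster 1 of that library these values were 0.826, 0.682 and 0.202. In the mouse wells of 3'DE-UMI the counts of TCF7 and LEF1 were equal. Of the 127 wells of cluster 2 in 3'DE library 1, 33 held a read of any member and 5 held reads of more than 1 member. Those 33 wells had a median of 4945 human reads and 0.225% mouse reads, against 4146 human reads and 0.210% in the others.

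**Figure D3:**
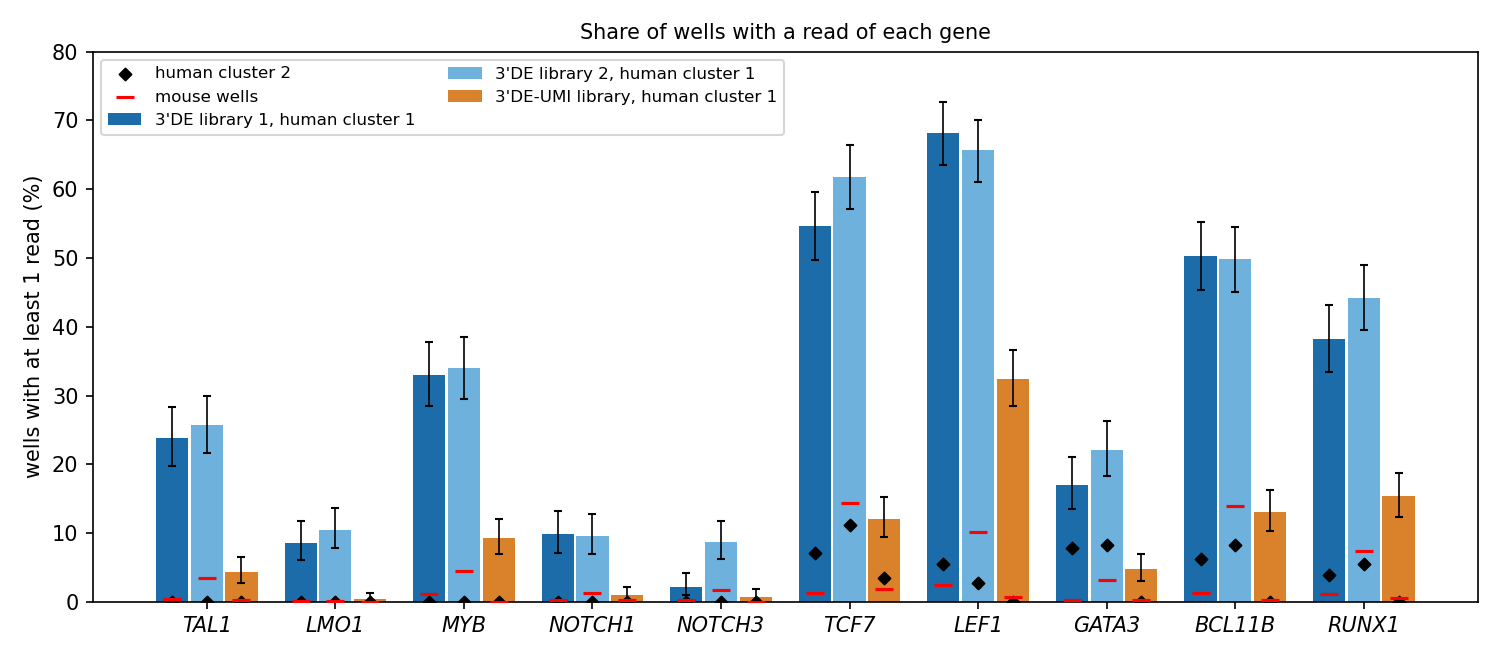
Percent of wells with at least 1 read of each gene, unthinned. Bars show human cluster 1 by library with exact 95% binomial intervals, black diamonds human cluster 2 and red dashes mouse wells of the same library. In human cluster 1 LEF1 runs from 32.4% to 68.2% and NOTCH3 from 0.758% to 8.71%.

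The protocols were compared within human cluster 1, where the question was whether the modified protocol changed which of these genes were measured. Shares of wells were lower in the 3'DE-UMI library than in both 3'DE libraries for all 10 genes. Fewer genes of any kind were seen there, with medians of 2835.5, 2708 and 858.5 genes per well of human cluster 1. The share of all human genes with a lower share of wells was not counted, so this order cannot be called particular to the 10 genes. TAL1 was seen in 23.9% and 25.7% of 3'DE wells and in 4.36% of 3'DE-UMI wells, TCF7 in 54.7% and 61.8% against 12.1%, and LEF1 in 68.2% and 65.6% against 32.4%. In the mouse wells of that library these 3 genes were in 0.286%, 1.86% and 0.714%. Depth was not the same, but all 10 genes kept this order when wells were thinned to 5000 human reads. After thinning, TCF7 was in 34.6% ± 7.93 (SD, n = 2) of 3'DE wells and 6.61% of 3'DE-UMI wells, TAL1 in 10.9% ± 1.94 and 2.69%, BCL11B in 27.0% ± 0.272 and 9.09%, and LEF1 in 46.5% ± 3.85 and 28.7%. The ratio of the shares was 5.23 for TCF7, 4.07 for TAL1, 2.97 for BCL11B, 1.72 for RUNX1 and 1.62 for LEF1, so the loss of wells was unequal between genes. With 2 libraries against 1 the smallest p of an exact permutation test is 0.333, so no test was run on shares. Against 3'DE library 1 alone, protocol and cell mixture cannot be told apart.

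Levels in CPM gave a less uniform picture than shares of wells. Of the 10 members 7 were lower in the 3'DE-UMI library than in both 3'DE libraries, MYB and RUNX1 lay between the 3'DE libraries, and LEF1 was higher than both. How many of all human genes were lower in this way was not counted. In edgeR 1709 of 13729 genes, or 12.4%, passed an adjusted p of 0.05, of which 729 were higher and 980 lower in 3'DE-UMI, with 1 residual degree of freedom and a median log2 difference of -0.11. Of the members 1, LMO1, was called, a share close to that of all genes.

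LMO1 fell by 4.65 on the log2 scale (SE 0.93, adjusted p = 0.00654 in edgeR). It had 135 reads in 35 wells, 750 reads in 47 wells and 8 reads in 2 wells, and 87.5% of the reads in 3'DE-UMI were in 1 well. The CPM of 3'DE library 2 was 30.6-fold, and that of 3'DE library 1 25.2-fold, above that of the 3'DE-UMI library, so the value within the shared cell mixture was no smaller than the other. The UMI table held 2 UMIs of LMO1 in 528 wells (1.82 per 1000000 human UMIs, 0.221 to 6.59). With these UMI counts in place of reads the log2 difference was -2.89 (adjusted p = 0.131), and in wells with under 1% mouse reads it was -3.69 (adjusted p = 0.1503), neither of them called.

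TCF7 was lower in 3'DE-UMI by 1.53 (SE 0.48, adjusted p = 0.0560 in edgeR), short of the threshold. It passed in 6 of 9 alternatives with a test, among them DESeq2 (adjusted p = 0.0213) and wells thinned to 5000 human reads (adjusted p = 0.000178), and the log2 ratio of CPM within the shared mixture was -2.02 against -1.15 for the other 3'DE library. LEF1 was 0.90 higher (SE 0.33, adjusted p = 0.0867) and did not pass in any of 9 alternatives. TAL1 had a difference of -0.73 (SE 0.54, adjusted p = 0.397), NOTCH1 of -1.40 (SE 0.76, adjusted p = 0.244) and NOTCH3 of -2.47 (SE 1.67, adjusted p = 0.354). BCL11B, at -0.49, MYB, at 0.14, and RUNX1, at 0.13, had standard errors between 0.42 and 0.46.

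GATA3 had a difference of -0.66 (SE 0.55, adjusted p = 0.453 in edgeR) that changed sign with thinning, which gives every well the same weight. It was 0.50 (adjusted p = 0.481) in wells thinned to 5000 human reads and 1.73 (adjusted p = 0.0395) in wells thinned to 1000, so its direction in the protocol comparison was not settled. One well held 25.3% of the GATA3 reads of 3'DE library 2 in human cluster 1. TAL1 passed in the same thinned wells (adjusted p = 0.0417 at 5000 reads), always lower in 3'DE-UMI.

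**Figure D4:**
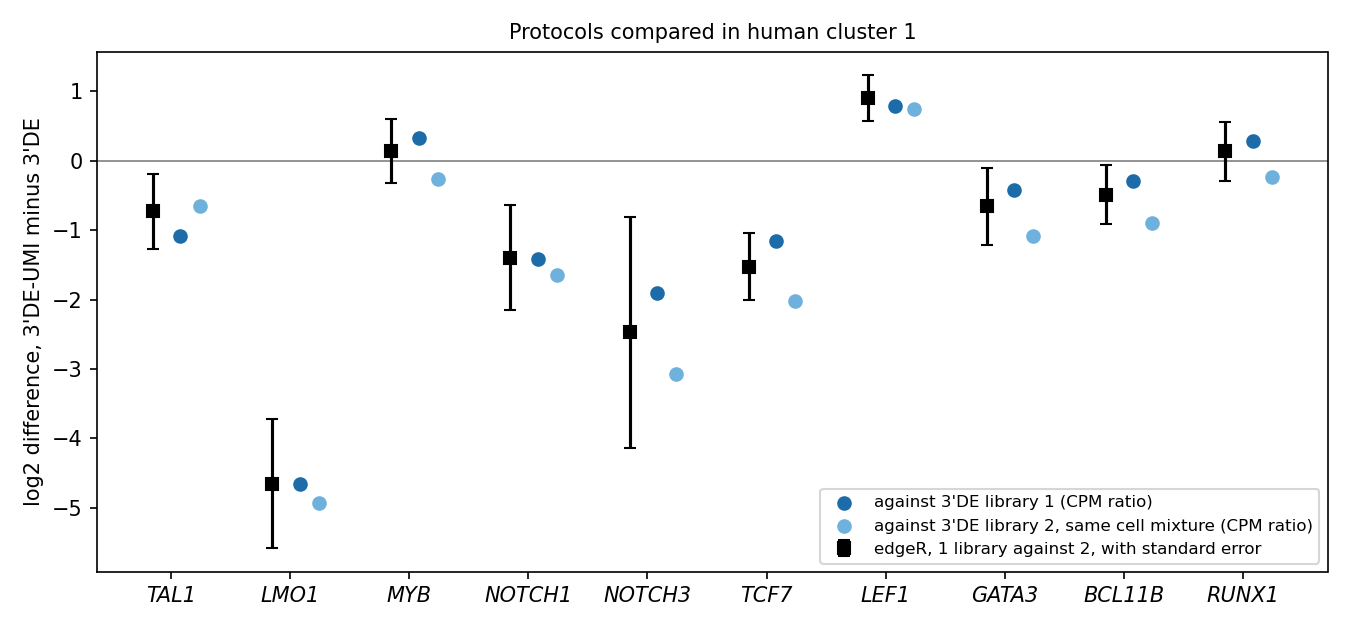
Log2 difference of 3'DE-UMI minus 3'DE in human cluster 1 for each gene: squares are edgeR estimates with standard error, circles the log2 ratio of the CPM of the 3'DE-UMI library to that of each 3'DE library. LMO1 lies lowest, at -4.65 in edgeR, and LEF1 is the gene with all 3 symbols above 0 by more than 0.7.

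Between the 3'DE libraries, which differ in cell mixture and depth, NOTCH3 had the largest ratio of shares of wells, at 2.22% (1.02 to 4.17) and 8.71% (6.26 to 11.7), and still had 0.769% and 2.39% after thinning, where the intervals overlap. TCF7 was at 29.0% and 40.2% of thinned wells, with intervals that did not overlap. TAL1 was the one member with a lower CPM in 3'DE library 2, by 0.44 on the log2 scale, while LEF1 was 0.05 higher there. Human cluster 1 wells of 3'DE library 2 had a median of 4.28% mouse reads against 0.257% in 3'DE library 1, and the part of stray reads in these differences was not tested. Within 3'DE library 1, wells with under 1% mouse reads and wells with 1 to 10% held TAL1 at 35.9 and 37.7 CPM, LEF1 at 212 and 190 CPM and LMO1 at 11.4 and 15.8 CPM.

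UMIs in the 3'DE-UMI library gave the number of molecules counted. Human cluster 1 had 1096579 human UMIs, with a median of 1400.5 per well. LEF1 had the most UMIs among the members, 245 in 159 wells, of which 53 wells held 2 or more and the richest held 7. RUNX1 had 71 UMIs in 59 wells, BCL11B 79 in 63, TCF7 62 in 52, MYB 57 in 47, TAL1 26 in 23, GATA3 24 in 24, NOTCH1 5 in 4, NOTCH3 3 in 3 and LMO1 2 in 2. Most positive wells therefore rested on a single molecule. The ratio of variance to mean over wells was 1.67 for LEF1, between 1.18 and 1.39 for TAL1, MYB, NOTCH1, TCF7, BCL11B and RUNX1, and 0.956 for GATA3, beside a median of 1.16 over genes with at least 10 UMIs. Wells were not brought to a common depth for this ratio.

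Reads behind each UMI also varied. LEF1 had 21.7 reads per UMI and RUNX1 17.2, while TAL1 had 10.1 and TCF7 10.4, beside a median of 15.3 (quartiles 11.8 and 18.2) over 6646 human genes with at least 10 UMIs. The reads and the UMIs came from separate pipelines, so this quotient holds their differences too. On the scale of UMIs LEF1 was at 223 per 1000000 human UMIs, against 349 CPM of reads, and TCF7 at 56.5 against 42.6. With UMI counts in that library the log2 difference of LEF1 between protocols was 0.23 (adjusted p = 0.763 in edgeR) and that of TCF7 -1.14 (adjusted p = 0.266). In human cluster 2, which held 13649 human UMIs, 1 UMI of TCF7 was the sole UMI of any member.

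**Figure D5:**
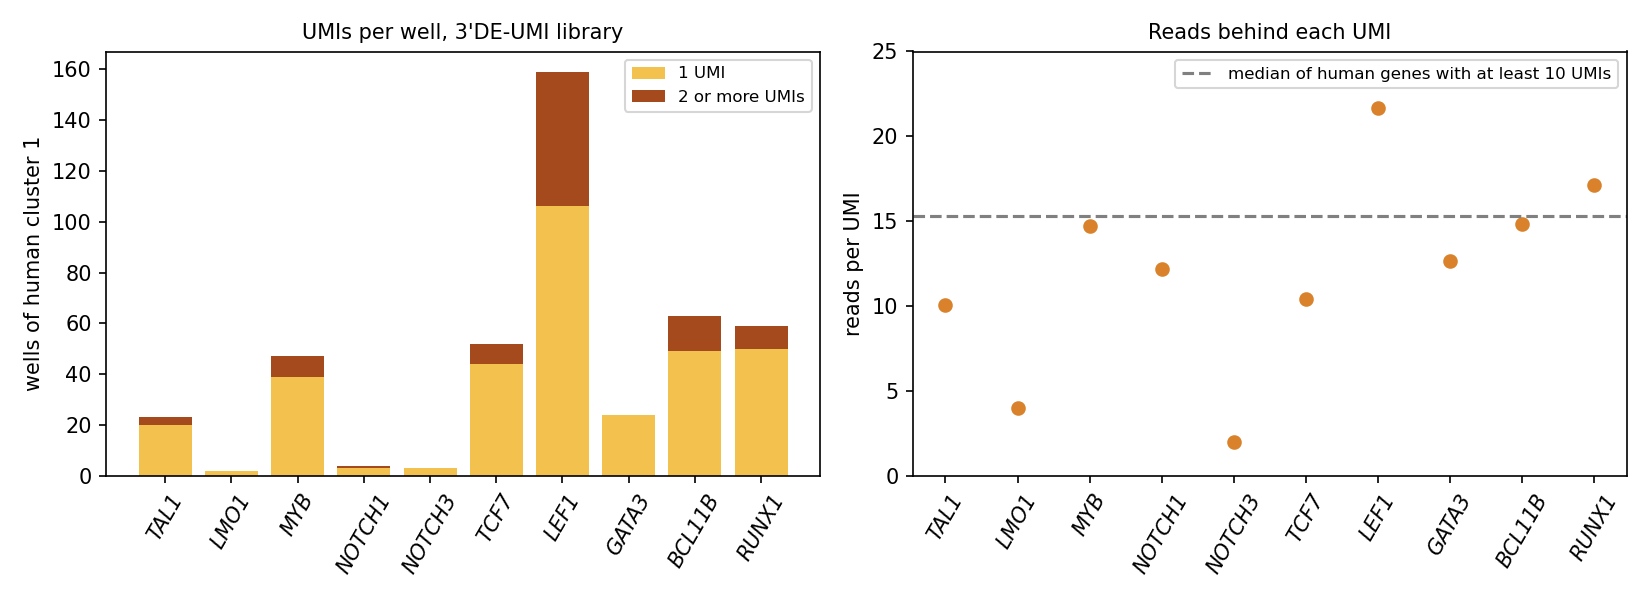
UMIs of each gene in human cluster 1 of the 3'DE-UMI library: the number of wells with 1 UMI and with 2 or more (left), and the reads per UMI with the median over human genes with at least 10 UMIs as a dashed line (right). LEF1 stands highest in both panels, with 159 wells and 21.7 reads per UMI.

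Shares of wells moved with depth inside each library as well. When the cluster 1 wells of a library were split into 3 sets of like size by human reads, TAL1 went from 17.6% in the shallowest to 29.6% in the deepest set of 3'DE library 1, and from 17.3% to 35.6% in 3'DE library 2. In the 3'DE-UMI library it went from 0.568% to 9.66%. LEF1 went from 57.4% to 76.3%, from 42.7% to 83.9% and from 10.8% to 55.1%. Levels in CPM were less uniform. TAL1 was at 36.97 and 39.4 CPM in the shallowest and deepest sets of 3'DE library 1, at 46.6 and 25.7 CPM in those of library 2, and at 5.52 and 20.9 CPM in those of 3'DE-UMI. LEF1 was at 225 and 180 CPM, 189 and 209 CPM, and 270.5 and 365.2 CPM. LMO1, at 7.27 and 14.2 CPM and at 13.5 and 16.5 CPM, was higher in the deepest set of both 3'DE libraries, as were MYB, at 33.3 and 41.7 CPM and at 65.5 and 68.9 CPM, and RUNX1, at 70.3 and 73.4 CPM and at 74.98 and 91.3 CPM. Even the deepest 3'DE-UMI wells, with a median of 43804 human reads, held TAL1 less often than the shallowest 3'DE wells, with medians of 13205 and 9431.

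Single wells of human cluster 1 usually showed only some of the 10 genes. With all reads the median well held reads of 3, 3 and 1 members, and the richest wells held 7, 9 and 8. After thinning to 5000 human reads the medians were 2, 2 and 1, and 14.4%, 14.6% and 48.3% of wells held none. Wells in which a pair of genes was seen together were set against the product of the shares of both genes. Over the pairs with a product of at least 5 wells, the median ratio of wells with both genes to the product was 0.991 over 24 pairs, 1.04 over 25 pairs and 1.25 over 5 pairs. TAL1 and RUNX1 were seen together in 2 wells of 3'DE library 1 where the product was 7.75, and in 7 wells of 3'DE library 2 where it was 8.61. TAL1 and MYB were together in 2 wells against 7.38 in the first and 8 against 6.89 in the second, so neither low value recurred. In 3'DE-UMI 4 of 5 pairs were above the product, MYB and LEF1 most, in 21 wells against 11.2, while in the 3'DE libraries that pair was in 27 wells against 29.5 and 33 against 31.5.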

How the data were processed

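The values were raw read counts per gene and well, which the authors made with mappa and STAR 2.7.0b on a combined hg19 and mm10 reference, and, for the 3'DE-UMI library, a deposited table of UMI counts made with the Drop-seq tools and STAR 2.4.2a. Per the study's methods, these pipelines were run on reads downsampled to like depth per cell; the labels do not repeat this for the deposited counts. The strand setting of counting was not stated, and RefSeq (GRCh38.p14) lists LEF1-AS1, GATA3-AS1 and RUNX1-AS1 over their namesakes and VDAC1 over TCF7, so reads of such pairs may be shared. Groups came from the labels. Replicate numbers only name samples, and nothing states that the libraries came from separate cultures beyond the cell mixtures. The test between clusters, with library as a block, sets the difference against its spread over these libraries. The test between protocols takes its spread from the 3'DE libraries, which differ in cell mixture, and assumes the lone 3'DE-UMI library varies like them.

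Wells needed 1000 reads and 200 genes, with under 10% from the other species; no doublet caller was run. Human wells of all libraries were clustered in scanpy 1.11.5 (10000 counts, log, 1000 variable genes, scaling within library, 20 components, 15 neighbours, Leiden at 0.1) without the 10 genes and a seeded 10% of genes. Sums over the wells of each library and cluster were tested in edgeR 4.0.16 (filterByExpr, TMM), with DESeq2 1.42.0 as an alternative; standard errors are the log2 difference divided by the root of F. All 10 genes are named with their values. The genes and lists were chosen with earlier results of these data known. Lists of pathway and marker genes were planned, but no file pairs their symbols with identifiers, so none was counted, none was taken out of the clustering, and clusters kept numbers.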

Additional observations from a re-analysis of the deposited data

Results flagged for a closer look

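TCF7 and GATA3 stood out by a rule on read counts. With human cluster 1 set against human cluster 2, the single 3'DE-UMI library had the opposite sign to both 3'DE libraries. The difference between the protocols was not tested. For TCF7 the log2 ratio of cluster 1 to cluster 2 was 0.92 and 2.63 in the 3'DE libraries and -1.73 in the 3'DE-UMI library, where all 27 reads of cluster 2 lay in 1 well, which had 1 UMI of TCF7. For GATA3 it was -1.08 and -3.27 in the 3'DE libraries. In the 3'DE-UMI library, where cluster 2 had 0 reads in 29 wells, it was at least 0.35 by reads only. The share of cluster 1 wells with GATA3 there was under the limit that 0 of 29 wells allows. The part of the few cluster 2 wells in these values was not tested.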

How the results depend on the processing

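The count of genes called between the human clusters, 371, was 163 with at least 5000 reads per well, 1479 with DESeq2, 558 with UMI counts in the 3'DE-UMI library and 136 in wells with under 1% mouse reads. Without the replicate block it was 1177. Leaving out 1 library gave 27 to 458, the lowest without 3'DE library 1. The count between protocols, 1709, was 737 with UMI counts, 701 with under 1% mouse reads and 2748 in wells thinned to 5000 human reads; DESeq2 gave 2368 and no filter on low counts 2405. The sets under 1% mouse reads, thinned to 1000 reads and without top wells were chosen after seeing the data. The 5 members at 0 reads in cluster 2 stayed at 5 in all alternatives run. Apart from UMI counts, these alternatives took or reweighted wells already without such reads, so the number could not fall. The 10 with lower shares in 3'DE-UMI stayed at 10 except in wells thinned to 1000 reads, where the number was 9, all but GATA3.

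Between clusters, leaving out 1 library gave log2 differences of -0.019 to 1.57 for TCF7 and -2.40 to 1.33 for GATA3, each with its reversed sign without 3'DE library 2. Between protocols, GATA3 was 0.50 and 1.73 in wells thinned to 5000 and 1000 reads, NOTCH3 was 0.28 and RUNX1 -0.20 with UMI counts, and leaving out 1 3'DE library gave -0.16 to 0.48 for MYB and -0.14 to 0.43 for RUNX1, negative without 3'DE library 1, as values with no test. The cause was not tested. The median log2 difference of all genes between clusters ranged from -0.03 in DESeq2 to 2.71 without 3'DE library 1. Assignment of wells by marker lists was not run, since no file pairs symbols with identifiers. Depth limits human cluster 2, where 3 reads equal 15.6 CPM in the 3'DE-UMI sum.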
